A study of Mus musculus with 2 samples.

Results

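The 8 enzymes of the folate and methionine cycles were followed through the cells of 2 mouse tumour libraries. The members were named by gene symbol: Mthfd1, Mthfd1l, Mthfd2, Tyms, Aldh1l2, Mtr, Mat2a and Ahcy, which are 8 of the 32285 genes in the count matrices. The labels describe subcutaneous tumours of mice on a control diet or on a serine/glycine-free diet, with 1 library for each diet, each profiled by droplet sequencing (10x Genomics) of RNA and T cell receptors from the same cells. No mouse strain, age, sex, tumour line or number of pooled animals is given by the labels, and although their preparation text speaks of human cardiac tissue, the matrices hold mouse genes. All values below are sums of UMIs (unique molecular identifiers, 1 for each captured RNA molecule) over the cells of a class, given as counts per 1000000 UMIs (CPM) without receptor and immunoglobulin genes. With 1 library a diet no test between diets was possible; each ratio has an exact 95% interval for counting error, which says nothing of the spread between mice.

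Folate enzymes carry single carbon units, taken largely from serine, on tetrahydrofolate. In the mitochondrion Mthfd2 oxidises the unit, Mthfd1l releases it as formate, and Aldh1l2 can burn it to carbon dioxide; in the cytosol Mthfd1 takes up the formate, and Tyms spends the unit on thymidylate for DNA. The methionine cycle starts where Mtr, methionine synthase, moves a folate unit onto homocysteine; Mat2a turns methionine into S-adenosylmethionine (SAM), the cell's methyl donor, and Ahcy splits the S-adenosylhomocysteine that methylation leaves behind. In tumours and in dividing T cells the mitochondrial arm is known for supplying nucleotide synthesis.

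In mouse GRCm38, the assembly of the deposited counts, Ahcy lies on chromosome 2 (155059310 to 155074497), Tyms on chromosome 5 (30038546 to 30073645), and Mat2a and Mthfd2 on chromosome 6 (72432796 to 72439556 and 83305704 to 83326011). Mthfd1l and Aldh1l2 lie on chromosome 10 (3972892 to 4167081 and 83487447 to 83534146), Mthfd1 on chromosome 12 (76254406 to 76319820) and Mtr on chromosome 13 (12181331 to 12258199). Promoters were taken from RefSeq (GRCm38.p6), where 7 of the 8 members had an entry; Aldh1l2 is named only. The 250 bases before the start are shown for Tyms, Mthfd2 and Ahcy, the genes that were higher in cells with the division gene Mki67 in tumour cells and in both immune classes low in tumour RNA (defined with the classes), with CCAAT or its reverse complement ATTGG in capitals.
Tyms, chr5:30073626-30073875, minus strand: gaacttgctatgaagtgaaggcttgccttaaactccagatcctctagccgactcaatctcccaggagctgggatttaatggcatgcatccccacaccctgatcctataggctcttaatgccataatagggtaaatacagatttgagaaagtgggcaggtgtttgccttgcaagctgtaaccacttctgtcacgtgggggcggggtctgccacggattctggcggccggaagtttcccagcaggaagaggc
Mthfd2, chr6:83317605-83317854, minus strand: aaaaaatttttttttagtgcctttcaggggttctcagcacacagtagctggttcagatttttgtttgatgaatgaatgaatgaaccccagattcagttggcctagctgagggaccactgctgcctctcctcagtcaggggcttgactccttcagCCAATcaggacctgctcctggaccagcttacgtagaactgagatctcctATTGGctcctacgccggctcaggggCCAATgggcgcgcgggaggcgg
Ahcy, chr2:155074498-155074747, minus strand: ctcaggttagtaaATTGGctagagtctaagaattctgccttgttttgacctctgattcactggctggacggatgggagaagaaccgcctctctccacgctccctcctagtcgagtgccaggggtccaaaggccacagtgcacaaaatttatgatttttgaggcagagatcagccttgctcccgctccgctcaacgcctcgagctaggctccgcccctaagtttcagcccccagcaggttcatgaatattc
The 300-base entries (250 bases before and 50 after the start) were searched on both strands for E2F-type letters (TTTCCCGC, TTTCGCGC, TTTGCCGC, TTTGGCGC), Atf4-type TGATGNAA, an Nrf1-type motif and CCAAT. The E2F-type, Atf4-type and Nrf1-type letters were in 0 of the 7 members' windows, against 2.26%, 3.97% and 0.971% of all 32851 entries. CCAAT was in 5 of 7 members against 37.4% of all entries, with 3 matches in Mthfd2, at 96, 47 and 22 bases before the start. That RefSeq start of Mthfd2 lies inside the gene span given above, not at its upstream end (83326011). A match is a description of letters, not of a bound site.

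After cells with under 300 genes or over 20% mitochondrial UMIs were left out, 3 classes were formed. T cells were barcodes with a T cell receptor beta (TRB) contig, 242 from the control library and 243 from the other. Macrophages had at least 0.1% of their UMIs in C1qa, C1qb and C1qc, genes of complement C1q, and no UMI of Krt20, which left 694 and 632. Tumour cells had at least 1 UMI of the keratin gene Krt20 and none of Ptprc, the pan-leukocyte gene, which gave 4121 and 4613 cells. Median depth was 2754 and 5845 UMIs in T cells, 9585 and 10472 in macrophages, and 25087 and 23206 in tumour cells. The 2 libraries shared 104 barcode strings. The epithelial markers Krt8 and Epcam were near 0 in the tumour cells (0.653 and 0.303 CPM for Krt8, 0.0092 and 0 for Epcam), so that name rests on Krt20 alone; Hbb-bs, a haemoglobin gene of red cells, was at 703 CPM in control T cells and 262 in control macrophages, and at 0 in both classes of the serine/glycine-free library.

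Part of the T cell class carried tumour RNA. Over 62 genes that were at 100 CPM or more in tumour cells and at least 10 times lower in macrophages, the T cell pools held a median of 47.5% (control) and 40.4% (serine/glycine-free) of the tumour cells' level, and the macrophage pools held 6.05% and 5.45%. These UMIs came from 34 and 35 T cell barcodes and from 36 and 34 macrophage barcodes in which tumour genes took at least 20% of the share they take in tumour cells. Without them, and without T cell barcodes rich in C1q, 205 and 206 T cells stayed at a median of 0.922% and 0.536%, and 658 and 598 macrophages stayed at 1.03% and 1.17%. The 62 genes were chosen as low in macrophages, and the same genes chose the barcodes left out. The low values in macrophages and after the removal therefore follow from the rule and are no separate check. The smaller T cell pools kept 43.1% and 50.3% of the T cell UMIs and had Cd3e, a T cell receptor subunit, at 1215 and 1608 CPM with Krt20 at 0. The reduced sets are called low in tumour RNA, and comparisons of levels in an immune class with those in tumour cells use them. Between the diets and by Mki67 the whole classes are given as well, and the likeness over pools uses the whole classes. In the whole T cell class Mthfd2 was at 127 (control) and 112 CPM (serine/glycine-free), Ahcy at 122 and 103, Mat2a at 141 and 122, Tyms at 92.8 and 80.5, Mthfd1l at 51.1 and 41.6, Mthfd1 at 26.5 and 24.0, Aldh1l2 at 9.47 and 6.80 and Mtr at 8.84 and 6.40. In the whole macrophage class Mthfd2 was at 61.5 and 62.1 CPM, Ahcy at 51.4 and 45.7, Mthfd1l at 23.1 and 21.4, Mthfd1 at 17.5 and 16.3, Mtr at 17.0 and 14.9 and Aldh1l2 at 1.38 and 1.13. Leaving out the barcodes with tumour RNA thus took Aldh1l2 out of the T cells and lowered their Mthfd2 and Ahcy.

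**Figure D1:**
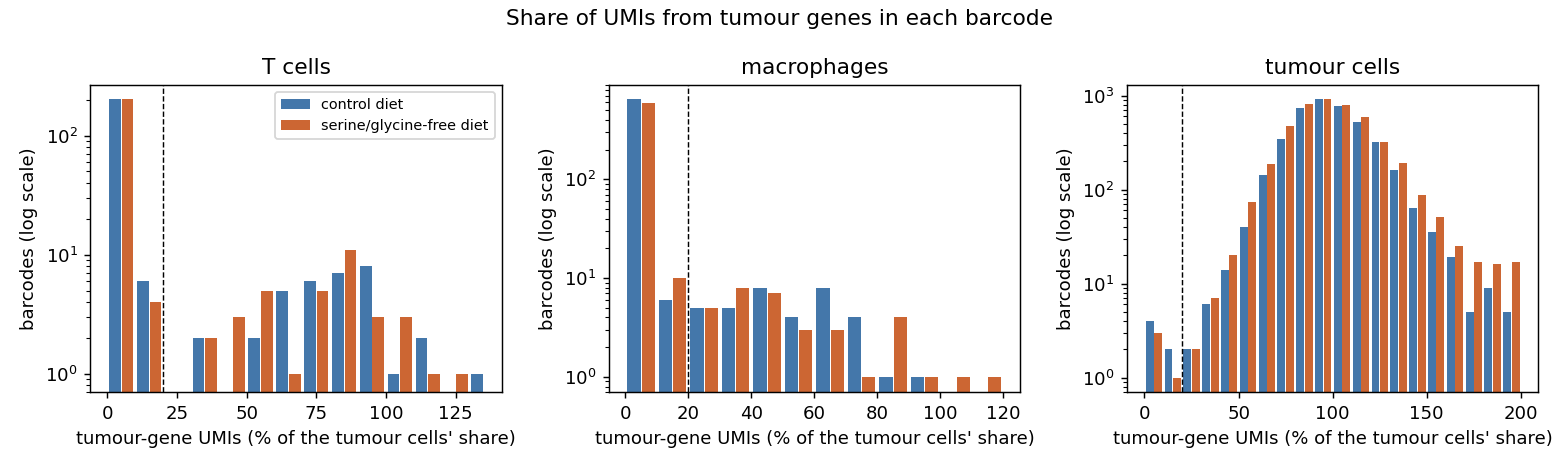
Barcodes (vertical axis, log scale) by the share of their UMIs from 62 tumour genes, as a percentage of the share in tumour cells (horizontal axis), for T cells, macrophages and tumour cells of each diet library. The last bar of the tumour cells takes in all higher shares, and the dashed line marks 20%; 34 control and 35 serine/glycine-free T cell barcodes lie beyond it, apart from the main body near 0.

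The 8 genes did not share a pattern over the cell classes. Among the classes compared, Aldh1l2 was highest in tumour cells and Mtr was highest in macrophages. Ahcy and Mthfd2 were higher in tumour cells than in either immune class. Mat2a was within 1.5-fold between tumour cells and either immune class. Of the kept barcodes, 3215 of 8262 (control) and 2434 of 7913 (serine/glycine-free) fell in no class. No member's level is given for them. UMI levels were compared between classes for 1 gene at a time, not between genes.

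Aldh1l2 had 3255 UMIs in control and 2400 in serine/glycine-free tumour cells, or 30.0 and 20.8 CPM. In T cells low in tumour RNA it had 0 UMIs in both libraries, where 3 UMIs would be 4.39 and 2.39 CPM. Against that floor the tumour cells were 6.82-fold and 8.70-fold higher, and the exact intervals of the ratio start at 5.54 and 7.07. In macrophages low in tumour RNA it had 1 UMI in each library, 196 times (35.2 to 7751) and 134 times (24.0 to 5284) below the tumour cells. The 15 and 17 UMIs of Aldh1l2 in the whole T cell class were all in the 34 and 35 barcodes with tumour RNA, and those barcodes held it at 56.7% and 67.1% of the tumour cells' level. Of the macrophage class, 9 of 10 and 7 of 8 UMIs were in such barcodes.

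Mtr ran the other way. It stood at 18.6 CPM (15.5 to 22.2) and 15.5 (12.6 to 18.9) in macrophages low in tumour RNA, at 13.2 (6.03 to 25.0) and 7.96 (3.82 to 14.6) in T cells low in tumour RNA, and at 5.36 (4.93 to 5.81) and 4.84 (4.45 to 5.26) in tumour cells. Macrophages were 3.48-fold and 3.21-fold above tumour cells, with tumour-to-macrophage ratios of 0.288 (0.236 to 0.352) and 0.311 (0.251 to 0.389). T cells had 9 and 10 UMIs of Mtr, and macrophages were 1.41 (0.721 to 3.17) and 1.95 (1.02 to 4.2) times above them.

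Ahcy was at 187 and 133 CPM in tumour cells, at 83.5 and 83.6 in T cells low in tumour RNA and at 47.2 and 43.8 in macrophages low in tumour RNA. Tumour cells were 3.97-fold (3.55 to 4.46) and 3.04-fold (2.70 to 3.43) above macrophages and 2.24-fold (1.73 to 2.96) and 1.60-fold (1.32 to 1.95) above T cells. Mthfd2 was at 170 and 131 CPM in tumour cells, at 93.7 and 85.9 in T cells and at 58.0 and 61.1 in macrophages. Its tumour-to-macrophage ratio was 2.92 (2.64 to 3.25) and 2.15 (1.94 to 2.38). T cells thus stood between the other classes for both genes in both libraries. Split by Mki67, Ahcy kept this order in each group. For Mthfd2 without Mki67, serine/glycine-free T cells were at 35.5 CPM (22.7 to 52.8), against 46.4 (40.3 to 53.3) in macrophages. The control values were 54.4 in T cells and 38.8 in macrophages. With Mki67, Mthfd2 was at 186 (131 to 255) and 145 (116 to 179) in T cells, against 201 and 179 in tumour cells.

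Mthfd1 and Mthfd1l were lowest in macrophages, though for Mthfd1 the T cells of the control library did not differ from macrophages beyond counting error (1.61, 0.936 to 2.64). Mthfd1 was at 37.2 and 31.1 CPM in tumour cells and 17.3 and 16.5 in macrophages, a ratio of 2.15 (1.79 to 2.62) and 1.89 (1.55 to 2.31). Mthfd1l was at 39.5 and 36.8 CPM in tumour cells, 41.0 and 50.9 in T cells and 20.0 and 21.0 in macrophages. In the serine/glycine-free library Mthfd1l was higher in T cells than in tumour cells (tumour-to-T-cell ratio 0.723, 0.565 to 0.941), while in the control library the ratio was 0.963 (0.666 to 1.45).

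Tyms was at 110 and 81.1 CPM in tumour cells, 82.0 and 94.7 in T cells and 78.2 and 59.4 in macrophages, all low in tumour RNA for the immune classes. Its tumour-to-macrophage ratio was 1.41 (1.29 to 1.54) and 1.37 (1.23 to 1.52), and against T cells it was 1.34 (1.03 to 1.78) and 0.856 (0.715 to 1.03). Among cells without Mki67, Tyms was at 47.6 and 33.2 CPM in tumour cells, 20.9 (10.0 to 38.4) and 31.0 (19.2 to 47.4) in T cells and 28.4 (23.3 to 34.4) and 21.7 (17.6 to 26.6) in macrophages.

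Mat2a differed less between the classes. It was at 137 and 123 CPM in tumour cells, 161 and 127 in T cells and 123 and 83.1 in macrophages. Tumour cells and T cells did not differ beyond counting error (0.854, 0.708 to 1.04, and 0.975, 0.834 to 1.15); the macrophages of the serine/glycine-free library were the low value.

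Shares of cells were compared after each cell was thinned to 1000 UMIs, which left out 13 and 6 T cells, 24 and 16 macrophages and 2 and 2 tumour cells; T cells and macrophages were those low in tumour RNA. Ahcy was seen in 14.7% (13.6 to 15.8) and 9.93% (9.08 to 10.8) of tumour cells, 5.73% (2.89 to 10.0) and 7.0% (3.88 to 11.5) of T cells, and 3.15% (1.94 to 4.83) and 2.7% (1.58 to 4.43) of macrophages. Aldh1l2 was seen in 3.25% (2.73 to 3.84) and 1.80% (1.44 to 2.23) of tumour cells, and in 0 of 192 and 0 of 200 T cells. In those T cells 3 cells would be 1.56% and 1.5%, which are not exact upper limits. The shares concern cells with a UMI at 1000 UMIs, not cells that express the gene. Without thinning, Aldh1l2 was seen in 41.8% and 29.6% of tumour cells and Ahcy in 86.6% and 73.1%. Mtr was seen in 0.510% and 0.455% of thinned tumour cells.

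**Figure D2:**
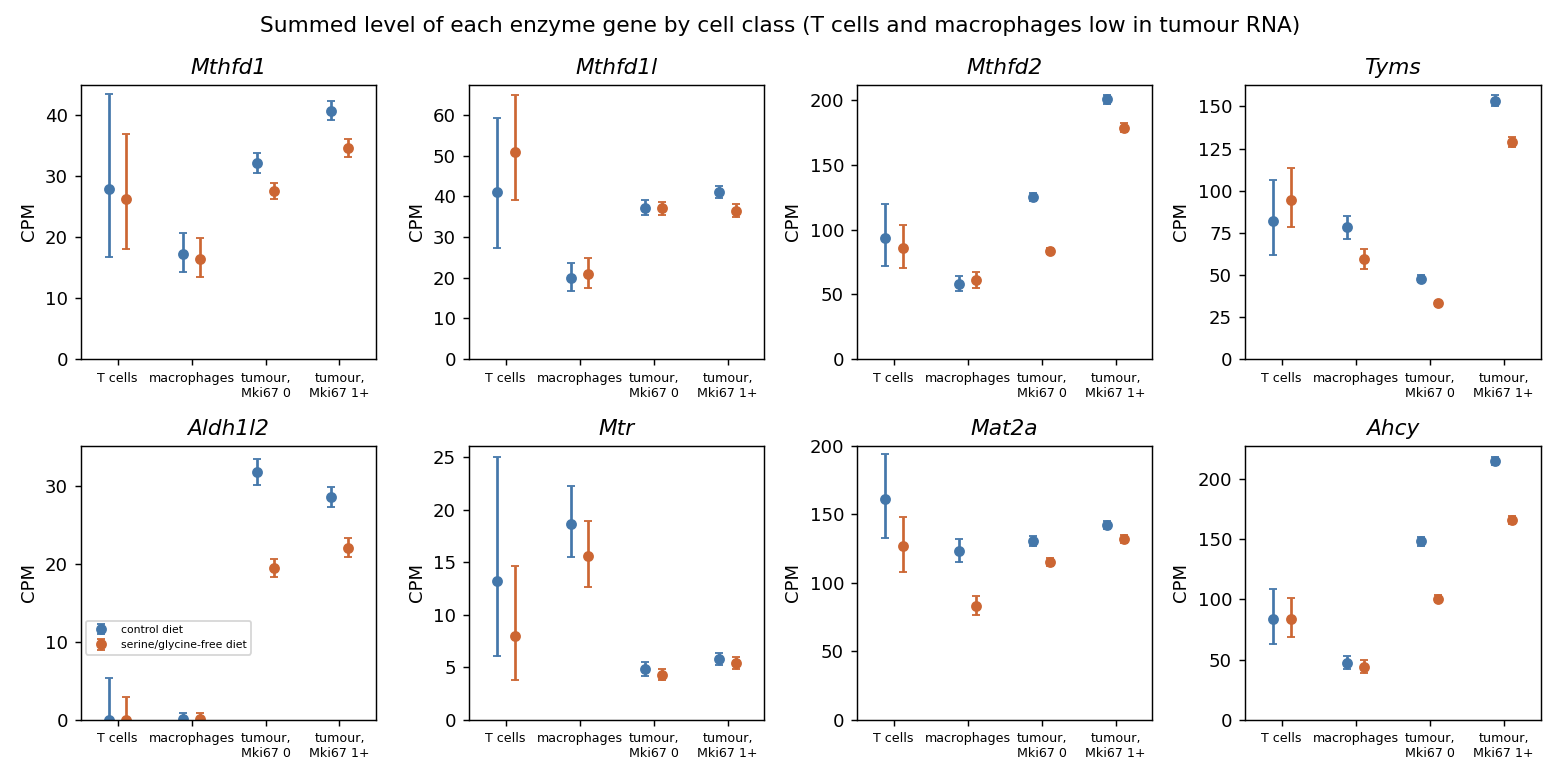
Level of each of the 8 enzyme genes (CPM, axes from 0) in T cells and macrophages low in tumour RNA and in tumour cells without or with a UMI of Mki67, for the control and serine/glycine-free libraries; points are summed levels and bars exact Poisson 95% intervals. Aldh1l2 is at 0 CPM in T cells and between 19.5 and 31.9 in tumour cells, while Mtr is highest in macrophages at 18.6 and 15.5.

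The comparison of the diets in tumour cells asked how the cycle's genes stood when dietary serine and glycine were missing. All 8 genes were lower in the serine/glycine-free library, by small margins. Ahcy was at 133 against 187 CPM (ratio 0.712, 0.697 to 0.727) and Aldh1l2 at 20.8 against 30.0 (0.694, 0.658 to 0.732). Tyms was at 81.1 against 110 (0.738, 0.718 to 0.758) and Mthfd2 at 131 against 170 (0.773, 0.756 to 0.790). Mthfd1 was at 31.1 against 37.2 (0.835, 0.798 to 0.874), while Mat2a (0.897), Mthfd1l (0.932) and Mtr (0.904, 0.803 to 1.02) differed least. On the log2 scale of CPM plus 5, of 5463 measured genes (those averaging 20 CPM or more) 102 were as low as Ahcy or lower, 155 as low as Aldh1l2, 195 as low as Tyms and 352 as low as Mthfd2. None of the 7 members above 20 CPM was past 1.5-fold (0 of 7), where 2.47% of all genes measured were past it in either direction and 0.677% were past it downwards. The members' median log2 ratio was -0.36, against -0.09 over all genes, 10% of which lay below -0.32. Mthfd1l and Mtr lay near the median of all genes, with 2757 and 2941 of 5463 genes as low or lower. The direction depends on scaling for Mthfd1l alone: with median-ratio size factors its log2 ratio was 0.00.

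Fewer tumour cells of the serine/glycine-free library had a UMI of Mki67, a gene of dividing cells (39.6% against 49.6%), so the comparison was repeated within each group. In cells without Mki67, Aldh1l2 was at 19.5 against 31.9 CPM (0.611, 0.564 to 0.661), Mthfd2 at 83.2 against 125 (0.665, 0.640 to 0.691), Ahcy at 101 against 148 (0.679, 0.656 to 0.704) and Tyms at 33.2 against 47.6 (0.698, 0.656 to 0.743). On the log2 scale of CPM plus 5, Aldh1l2 was past 1.5-fold and Mthfd2, at -0.56, was just inside it, so 1 of 7 measured members was past the line, against 3.43% of genes in either direction and 0.979% downwards. Mthfd1l did not differ there (0.997, 0.935 to 1.06). In cells with Mki67 the ratios were nearer 1: 0.772 for Aldh1l2, 0.773 for Ahcy, 0.839 for Tyms and 0.891 (0.868 to 0.914) for Mthfd2. None of 7 was past 1.5-fold (0 of 7), against 1.58% of genes.

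The median depth of the tumour cells differed between libraries (25087 and 23206 UMIs). Among tumour cells of 10000 to 30000 UMIs the log2 ratios were -0.62 for Ahcy, -0.59 for Mthfd2, -0.54 for Aldh1l2 and -0.45 for Tyms, against -0.48, -0.36, -0.44 and -0.42 in all tumour cells. Ahcy and Mthfd2 were then past 1.5-fold (2 of 7), where 3.77% of genes were in either direction. In that range 3 of 7 members, Mthfd2, Aldh1l2 and Ahcy, were past it among cells without Mki67, where 4.34% of genes were. Krt20, which defines the class, was itself higher in the serine/glycine-free tumour cells. The T cell barcodes with tumour RNA held it at 97.3 CPM in the control library, 61.7% of the tumour cells' level. In the other library they held it at 182 CPM, 73.6% of that level. Whether the Krt20 rule took different tumour cells in the 2 libraries was not tested.

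In macrophages Mat2a was the member that stood apart between the diets. It was at 84.4 against 125 CPM (595 and 902 UMIs; ratio 0.677, 0.609 to 0.752) in the whole class and at 83.1 against 123 (0.674, 0.603 to 0.753) in macrophages low in tumour RNA. In the latter, 104 of 5483 genes were as low or lower. It was lower in cells without Mki67 (80.5 against 122, ratio 0.662, 0.574 to 0.762) and with it (88.7 against 126, ratio 0.706, 0.587 to 0.846), and its log2 ratio lay between -0.56 and -0.42 under every setting tried. Tyms was at 57.6 against 76.0 CPM (0.758, 0.665 to 0.863) in the whole class. Its ratio was 0.957 (0.820 to 1.12) among macrophages low in tumour RNA with Mki67 and 0.764 (0.574 to 1.02) among those without, and the share of macrophages with Mki67 was 23.7% against 32.6%. Mthfd2 (1.01, 0.883 to 1.16), Mthfd1l (0.928), Ahcy (0.888) and Mtr (0.876) had intervals that held 1. None of the 5 members above 20 CPM was past 1.5-fold (0 of 5), against 3.59% of genes in the whole class and 3.68% in macrophages low in tumour RNA. In the latter, on the log2 scale of CPM plus 5, 0 of 5 were past it without Mki67 (background 4.97%), with Mat2a just inside at -0.57, and 0 of 6 with Mki67 (3.97%).

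In the whole T cell class, and in T cells low in tumour RNA taken whole, no member differed between the diets beyond counting error. In the whole class the 8 ratios lay between 0.719 and 0.906, all below 1, with intervals that held 1. In T cells low in tumour RNA the 7 ratios that could be formed lay between 0.604 for Mtr (10 and 9 UMIs) and 1.24 for Mthfd1l, again all with intervals that held 1. Tyms was at 94.7 against 82.0 CPM (1.15, 0.834 to 1.62), Mthfd2 at 85.9 against 93.7 (0.917, 0.667 to 1.27), Mat2a at 127 against 161 (0.786, 0.612 to 1.01) and Ahcy at 83.6 against 83.5 (1.0, 0.718 to 1.41). Mthfd1l, Tyms and Ahcy were thus below 1 in the whole class and at or above it without the barcodes that carried tumour RNA. None of 6 measured members was past 1.5-fold in either set (0 of 6), where 8.53% and 16.9% of genes were. The pools also differed in make-up: 69 of 242 control and 162 of 243 serine/glycine-free T cells had a UMI of Cd8a or Cd8b1 and none of Cd4, and T cells low in tumour RNA with a UMI of Mki67 were 14.6% against 27.2%. Among those CD8 barcodes, tumour RNA included, the log2 ratio was -0.80 for Mthfd1 and -0.74 for Tyms. Among T cells low in tumour RNA without Mki67, Mat2a was at 115 against 176 CPM (0.656, 0.476 to 0.904), 1 of 6 members past 1.5-fold where 20.7% of genes were. With Mki67 its ratio was 1.10 (0.699 to 1.78), and 2 of 6 were past it (Mthfd1 lower, Mthfd1l higher, on 9 to 40 UMIs) where 31.3% of genes were. What part the make-up or the depth of the pools had in these values was not tested.

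**Figure D3:**
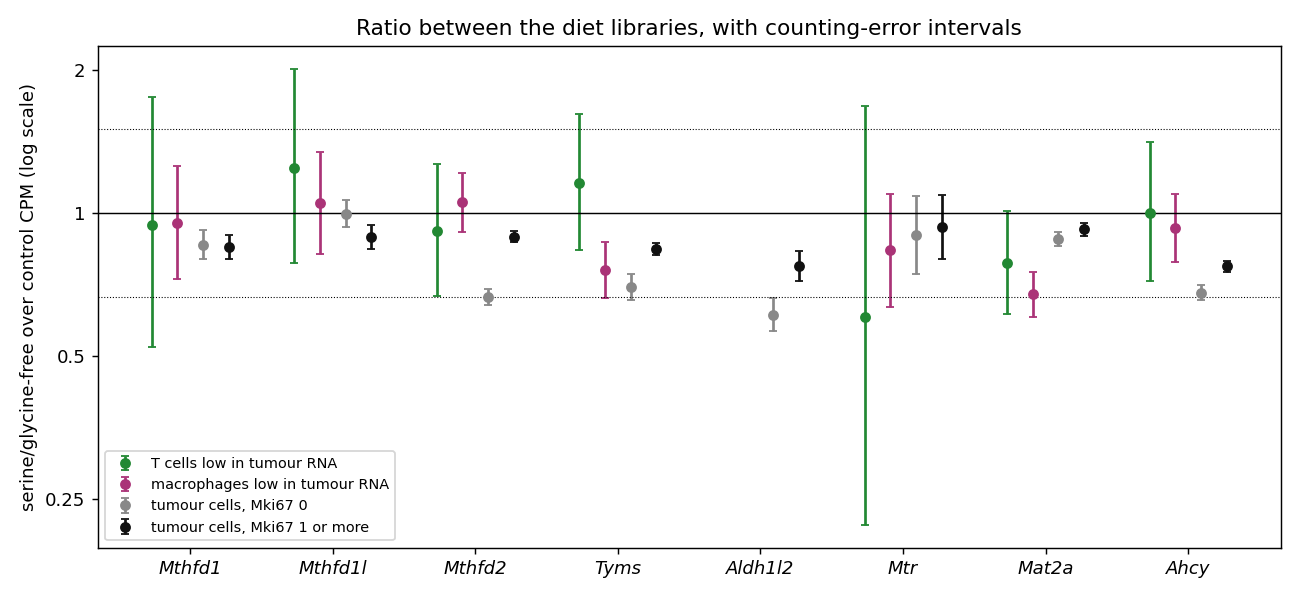
Ratio of serine/glycine-free to control CPM (log axis) for each gene, in T cells and macrophages low in tumour RNA and in tumour cells without and with Mki67; bars are exact 95% intervals of counting error, dotted lines mark 1.5-fold, no pseudocount is added, and points with under 5 UMIs in either library are left out. Tumour cells without Mki67 lie lowest for Aldh1l2 (0.611) and Mthfd2 (0.665), and macrophages lie lowest for Mat2a (0.674).

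The split by Mki67 asked which members went with cell division, within a library. Tyms had the highest ratio in tumour cells and in both immune classes low in tumour RNA. In tumour cells it was at 153 CPM with Mki67 against 47.6 without (3.23, 3.08 to 3.38) in the control library and at 129 against 33.2 (3.88, 3.69 to 4.08) in the serine/glycine-free library. In macrophages low in tumour RNA the ratios were 5.11 (4.12 to 6.39) and 6.40 (5.06 to 8.16), and in T cells low in tumour RNA they were 10.8 (5.35 to 23.9) and 5.44 (3.37 to 9.19). The T cell values rest on 30 and 56 cells with Mki67. In the whole T cell class Tyms was at 3.37 (2.31 to 5.04) and 3.99 (2.71 to 6.06), and in the whole macrophage class at 4.88 (3.96 to 6.04) and 6.57 (5.21 to 8.33).

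Mthfd2 and Ahcy were also higher with Mki67. In tumour cells Mthfd2 was at 201 against 125 CPM (1.60, 1.55 to 1.66) in the control and 179 against 83.2 (2.15, 2.08 to 2.23) in the serine/glycine-free library. Its ratios were 2.16 (1.75 to 2.68) and 1.98 (1.62 to 2.43) in macrophages, and 3.42 (2.02 to 5.86) and 4.08 (2.57 to 6.72) in T cells, both low in tumour RNA. Ahcy had ratios of 1.45 (1.41 to 1.5) and 1.65 (1.60 to 1.71) in tumour cells, 1.94 and 2.18 in macrophages and 1.96 (1.12 to 3.41) and 2.24 (1.47 to 3.45) in T cells. In the whole T cell class Mthfd2 was at 2.22 (1.65 to 3.02) and 4.11 (2.95 to 5.85), above Tyms in the serine/glycine-free library, and Ahcy was at 1.28 (0.960 to 1.72) and 2.34 (1.75 to 3.17), so that Ahcy of the control T cells did not differ beyond counting error there; among CD8 barcodes of the control library its log2 ratio was -0.46. In the whole macrophage class Mthfd2 was at 2.26 and 2.19 and Ahcy at 1.87 and 2.17.

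The other members moved little or unevenly with Mki67. Mthfd1 was higher in tumour cells (1.27, 1.19 to 1.36, and 1.26, 1.18 to 1.34), and in T cells low in tumour RNA it was at 3.21 (1.18 to 9.21) on 11 and 8 UMIs in the control library and 1.10 (0.519 to 2.31) in the other. Mat2a was at 1.09 and 1.14 in tumour cells and had intervals that held 1 in the immune classes low in tumour RNA (1.03 and 1.10 in macrophages, 0.724 and 1.21 in T cells); in the whole T cell class it was at 0.699 (0.527 to 0.923) and 1.03 (0.815 to 1.30). Mthfd1l was at 1.10 and 0.984 in tumour cells, and at 1.94 (1.14 to 3.37) in the serine/glycine-free T cells against 1.11 (0.441 to 2.57) in the control ones. Aldh1l2 in tumour cells was lower with Mki67 in the control library (0.898, 0.838 to 0.963) and higher in the other (1.14, 1.05 to 1.23).

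Counted by the 1.5-fold line, 2 of 7 members were higher with Mki67 in control tumour cells and 3 of 7 in serine/glycine-free ones, against 6.46% and 6.91% of genes. In the whole T cell class 2 and 4 of 6 were higher, against 13.3% and 10.5%, and in T cells low in tumour RNA 4 and 4 of 6, against 22.0% and 13.0%. In the whole macrophage class 3 and 3 of 5 were higher, against 7.17% and 7.24%, and in macrophages low in tumour RNA also 3 and 3 of 5, against 7.51% and 7.57%. Cells with a UMI of Mki67 were deeper in every class, with medians in tumour cells of 30251 against 21346 UMIs (control) and 30214 against 19732, and a UMI is seen more easily in a deep cell. Among tumour cells of 10000 to 30000 UMIs, 2 of 7 (control) and 2 of 6 were higher past the line, against 6.73% and 8.01% of genes.

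**Figure D4:**
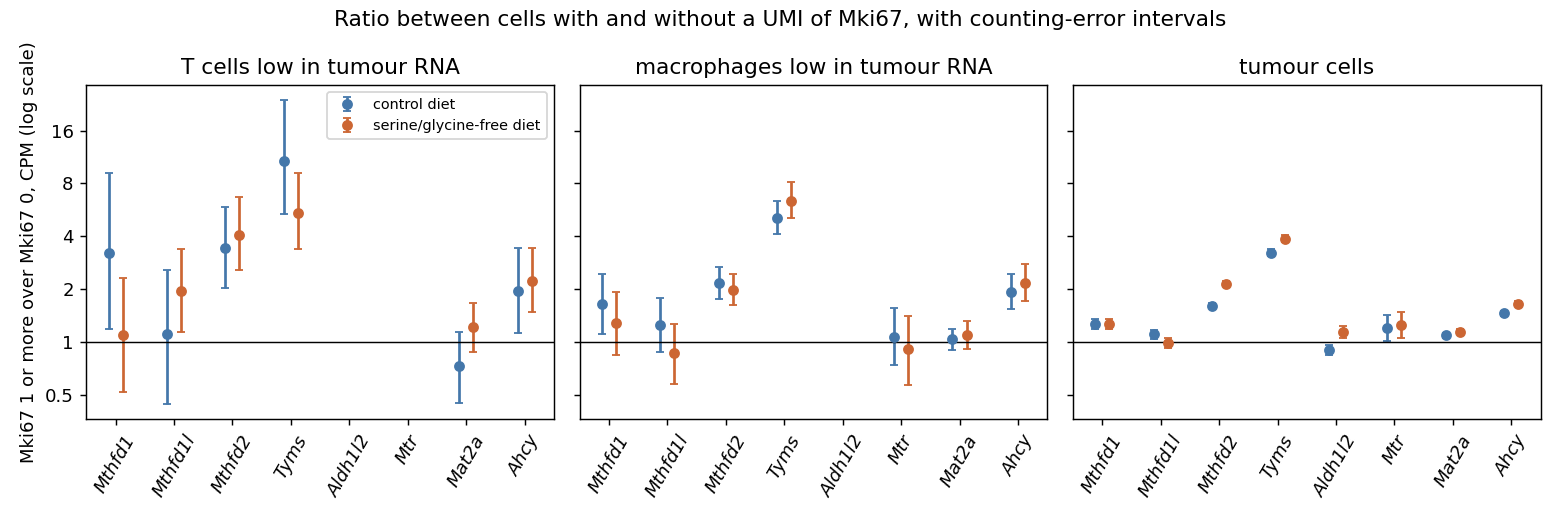
Ratio of CPM in cells with at least 1 UMI of Mki67 to cells with none (log axis) for each gene, in T cells and macrophages low in tumour RNA and in tumour cells of each library; bars are exact 95% intervals of counting error, and points with under 5 UMIs on either side are left out. Tyms, Mthfd2 and Ahcy lie above 1 in all panels, Tyms highest at 3.23 to 10.8, and Mat2a lies near 1.

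Tumour cells were then ordered within each library by the share of UMIs in 3 sets of other genes and divided into 3 equal groups (tertiles): replication genes (Mcm2, Mcm3, Mcm5, Mcm6, Mcm7 and Pcna), 11 mitosis genes and 12 genes of the Atf4 response to amino acid shortage, none of them members. The boundaries divide a continuous range: 488, 278 and 1260 control cells and 455, 213 and 1431 serine/glycine-free cells lay within 10% of a boundary, in that order. Tyms and Mthfd1 went most with replication, Mthfd2 and Ahcy went with it less, and Mthfd2 and Aldh1l2 went with the Atf4 genes. Mthfd2 was the member high on both.

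With replication, Tyms went from 30.0 to 99.3 to 180 CPM over the tertiles of control cells and from 14.9 to 58.4 to 147 in the serine/glycine-free library, top-to-bottom ratios of 6.02 (5.61 to 6.46) and 9.89 (8.98 to 10.9). Mthfd1 went from 23.9 to 48.6 CPM (2.03, 1.86 to 2.22) and from 19.3 to 43.2 (2.24, 2.04 to 2.46). Mthfd2 had ratios of 1.65 and 2.14, and Ahcy 1.57 and 2.06. Aldh1l2 (1.02 and 1.23) and Mtr (1.14 and 1.03) differed little. Median depth was 20432 UMIs in the lowest and 27939 in the top replication tertile of control cells, and 18442.5 and 28115.5 in the other library. Among cells of 10000 to 30000 UMIs the ratios were 1.93 and 2.30 for Mthfd1, 1.64 and 2.18 for Mthfd2 and 1.49 and 1.76 for Ahcy.

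With the Atf4 genes, Aldh1l2 went from 16.8 to 27.1 to 47.3 CPM in control cells and from 11.2 to 19.5 to 32.1 in the others, ratios of 2.82 (2.57 to 3.10) and 2.87 (2.57 to 3.21). Mthfd2 went from 111 to 174 to 229 CPM (2.06, 1.98 to 2.14) and from 69.6 to 130 to 196 (2.82, 2.70 to 2.95). Mthfd1l had ratios of 1.37 (1.27 to 1.48) and 1.21 (1.12 to 1.31). Mat2a was at 1.06 and 1.36, Ahcy at 0.879 and 0.932, and Tyms at 0.761 (0.727 to 0.796) and 0.943 (0.896 to 0.992). Median depth hardly differed between these tertiles (24945, 26114 and 24301 UMIs in control cells). Among cells of 10000 to 30000 UMIs the ratios over Atf4 tertiles were 3.17 and 3.46 for Aldh1l2 and 2.57 and 3.53 for Mthfd2, and that of Tyms over replication tertiles was 8.65 and 12.6.

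With the mitosis genes, Tyms had ratios of 5.87 and 9.28, Mthfd2 1.88 and 2.69, and Ahcy 1.72 and 2.11. Mtr was at 1.09 (0.889 to 1.35) and 1.53 (1.22 to 1.93). Cells of 10000 to 30000 UMIs gave Mtr 1.14 (0.834 to 1.57) and 2.07 (1.49 to 2.92). Median depth was 20655 UMIs in the lowest and 31792.5 in the top mitosis tertile of all control tumour cells. Aldh1l2 was lower in the top tertile of control cells (35.9 to 26.4 CPM, 0.735, 0.675 to 0.80) and level in the serine/glycine-free cells (0.990, 0.897 to 1.09), where cells of 10000 to 30000 UMIs gave 0.661 (0.566 to 0.770). Its order with mitosis in the serine/glycine-free library thus depended on which depths were taken.

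**Figure D5:**
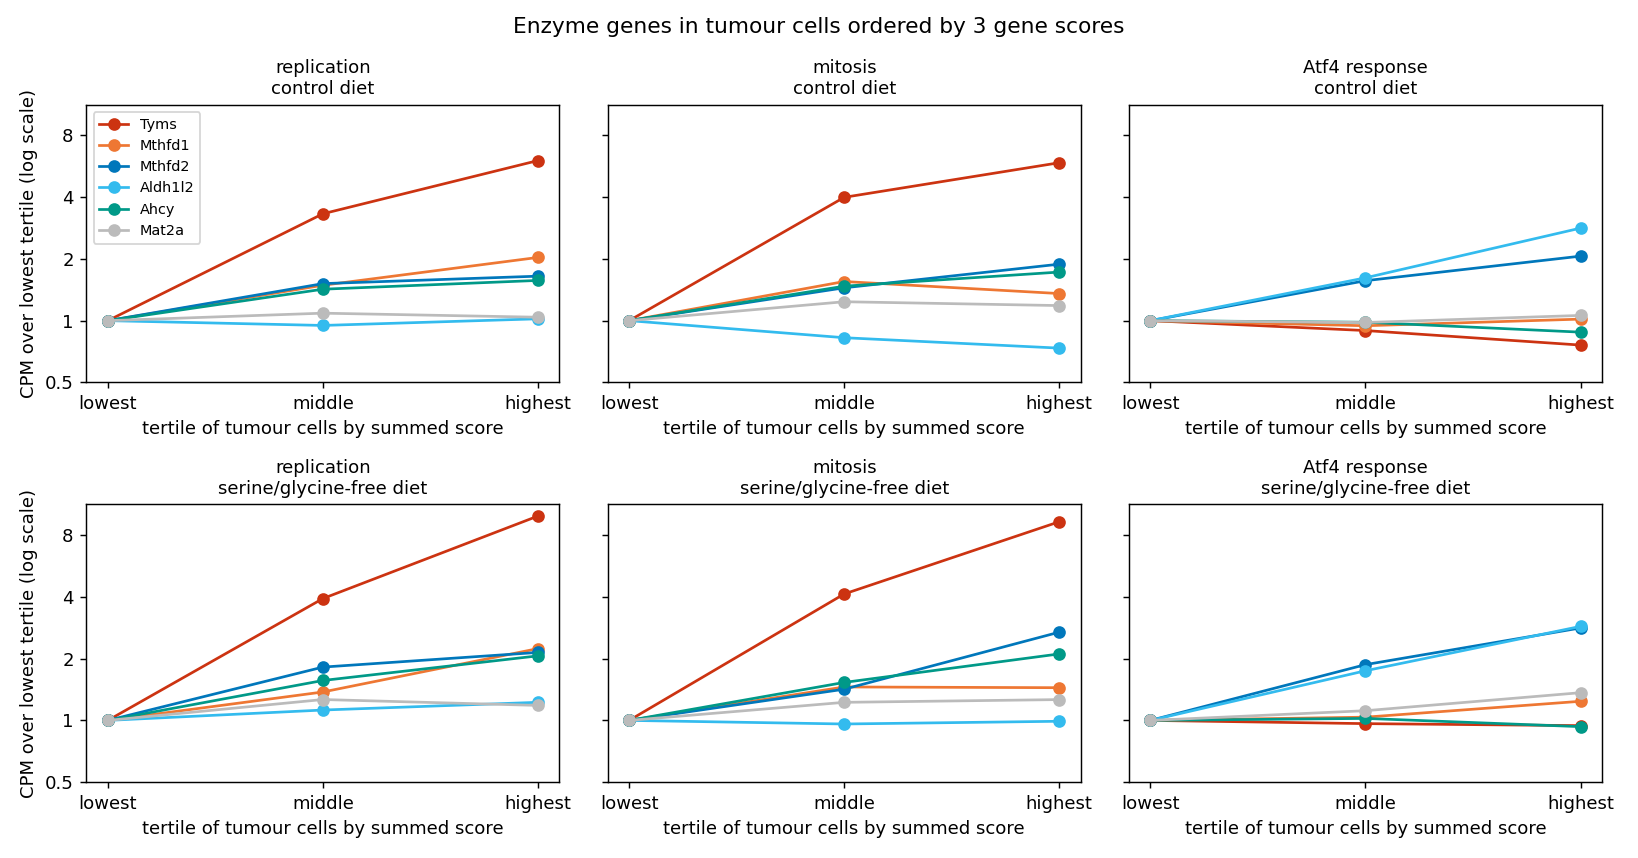
Level of 6 of the enzyme genes in tertiles of the tumour cells, relative to the lowest tertile (log axis), with cells ordered by replication, mitosis or Atf4 response genes (columns) in the control (top) and serine/glycine-free (bottom) libraries. Tyms climbs to 6.02 and 9.89 times with replication, and Aldh1l2 (2.82 and 2.87) and Mthfd2 (2.06 and 2.82) climb with the Atf4 genes.

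The neighbouring genes of the pathway in tumour cells are given from lists chosen by function. Of 17 other folate enzymes, 7 were above 20 CPM, 6 of them with a log2 ratio below 0 between the diets, with a median of -0.35 and 0 past 1.5-fold. Shmt2, which loads the serine carbon onto folate in the mitochondrion, was at 135 against 195 CPM and Gart, of purine synthesis, at 27.7 against 37.5, while Mthfd2l, a relative of Mthfd2, was at 32.7 against 29.2. The 3 serine synthesis genes Phgdh (417 against 542 CPM), Psat1 (161 against 205) and Psph (68.6 against 95.7) had a median of -0.37. Of 13 thymidylate and replication genes, 12 were measured, all lower, with a median of -0.33, and Rrm2, a ribonucleotide reductase subunit, was past 1.5-fold (105 against 170 CPM). All 12 mitosis genes were lower (median -0.43), with Aurka past 1.5-fold (33.3 against 55.4 CPM). The Atf4 genes did not move as 1 group: 8 of 12 were measured, with a median of -0.11 against -0.09 over all genes, Asns at 148 against 193 CPM and Vldlr at 45.4 against 38.2.

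Beside the methionine cycle, 3 of 12 other methionine and homocysteine genes were measured in tumour cells (median -0.13), with Mat2b, the regulatory partner of Mat2a, at 41.6 against 41.4 CPM. Of 11 polyamine and salvage genes, 9 were measured with a median of -0.31; Odc1, which makes putrescine, was at 183 against 246 CPM, and Sat1, which acetylates polyamines, was at 296 against 198. Of 14 methyltransferases and factors that use or sense SAM, 9 were measured with a median of -0.12 and 0 past 1.5-fold. Of 7 folate carriers and receptors, 0 reached 20 CPM. The 8 Myc and growth genes had 7 measured and a median of -0.24.

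In T cells low in tumour RNA, 3 of the 9 other folate enzymes measured were past 1.5-fold: Gldc, of glycine cleavage, was at 40.6 against 7.32 CPM (51 and 5 UMIs), Shmt2 at 59.7 against 95.2 and Ggh, which trims folate polyglutamates, at 15.1 against 27.8 (19 UMIs in each). Of 11 mitosis genes 7 were past it upwards (background 7%), with a median of 0.77, and Ccnb1 was at 43.8 against 13.2 CPM. The 12 replication genes had a median of 0.07 with Tk1 (138 against 71.7 CPM) and Dut (363 against 212) past it, and serine synthesis genes had a median of -0.08. In this pool 16.9% of genes were past the line in either direction. In the whole T cell class 7 other folate enzymes were measured, against 9 in the smaller pool, so the counts are not over the same genes. There 0 of 7 were past it, with Shmt2 at 92.5 against 122 CPM and Mthfs highest at a log2 ratio of 0.22. Of the replication genes 0 of 12 were past it, and 4 of 12 mitosis genes were past it upwards with a median of 0.45. The background in the whole class was 8.53% in either direction.

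Likeness was measured as Pearson's r over 8 pools against 5888 genes, as a description. The pools were whole T cells, whole macrophages and tumour cells without or with Mki67, from 2 libraries, so the points share libraries and depth. The whole T cell pools held tumour genes at a median of 47.5% (control) and 40.4% (serine/glycine-free) of the tumour cells' level. The part of that tumour RNA in the r values was not tested. Tyms was most like Cdk1 (r = 0.99), Alyref and H2afz, and Mthfd2 most like Lsm8 (0.99), Orc6 and Nap1l1. Aldh1l2 was most like Hspa9 (0.998), Nop2 and Rpl31, and Mtr most like Leprot (0.996), Atp1b3 and Dnm2. Ahcy was most like Chchd3, Mthfd1 most like Ipo7, Mthfd1l most like Zeb1 and Mat2a most like Ndufb11 (0.96). Among the members, Mthfd1 and Ahcy were most alike (0.99), and Aldh1l2 and Mtr were most opposed (-0.91).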

How the data were processed

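The authors deposited raw UMI counts for each gene in each cell, from Cell Ranger 7.1.0 per the file headers (2.2.2 per the submitters' processing notes) on mm10, and tables of receptor contigs with their UMI and read counts. Only called cells were in the matrices. Here counts of both libraries (161332426 and 157234945 UMIs) were summed per class, and log2 ratios were taken of CPM plus 5 in Python 3.11.15 with scipy 1.17.1. A gene was measured where the pools compared averaged 20 CPM or more, and a log2 ratio past 1.5-fold was counted. Poisson, Clopper-Pearson and conditional binomial 95% intervals cover counting error; a count of 0 is set against 3 counts. No doublet caller was run. Genes named from a list are among its 2 highest and 2 lowest log2 ratios, and those named as like a member are its 3 highest correlations. Summing and intervals were tested on simulated data. Members, lists and comparisons were chosen with earlier results of these data known. The sets low in tumour RNA, the macrophage split and the tertiles were added after the data were seen. Alternatives were other pseudocounts, filters, scalings, cell limits and class definitions.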

Additional observations from a re-analysis of the deposited data

Results flagged for a closer look

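Aldh1l2 in tumour cells went opposite ways with Mki67 in the 2 diet libraries: the ratio of cells with Mki67 to cells without was 0.898 (0.838 to 0.963) in the control library and 1.14 (1.05 to 1.23) in the serine/glycine-free library. Each interval covers counting error only, and with 1 library a diet the difference between the libraries was not tested. Over the settings tried, the log2 ratio ran from -0.25 to -0.09 in the control library and from -0.02 to 0.23 in the other.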

How the results depend on the processing

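Of 632 recomputed log2 ratios of a member, 107 left the main interval of counting error and 2 that were past 1.5-fold changed sign. Of 96 shares of cells taken at another thinning depth, 72 left their main interval. Of 97 recounts of members past 1.5-fold, 83 stayed within 1.5 times the main count, counts of 0 that stayed 0 included. Between diets in tumour cells (0 of 7) the count was 1 with the mean of per-cell CPM and 2 among cells of 10000 to 30000 UMIs. In tumour cells without Mki67 (1 of 7) it was 0 with pseudocount 20, median-ratio size factors, Krt20 of at least 2 or a 2-fold line, and 3 with the mean of per-cell CPM or cells of 10000 to 30000 UMIs. By Mki67 in control tumour cells (2 of 7) it was 1 with a 2-fold line or Krt20 of at least 2. Between diets in T cells (0 of 6) it was 2 among CD8 cells. By Mki67 in control T cells (2 of 6) it was 5 with the mean of per-cell CPM, 1 among CD8 cells and 4 among cells low in tumour RNA, where the log2 ratio of Aldh1l2 was 0 against 1.31 in the whole class (CD8 cells, -1.38). The cause of these moves was not tested, except that tumour RNA was measured. Among the alternatives, shares of all genes past the line were taken only in the depth range and in cells low in tumour RNA. The other recounts, CD8 cells and per-cell CPM included, have no such share beside them and are not set against a background. No paired analysis was possible because each diet has 1 library. Depth limits the T cells most: 682990 and 1256652 UMIs low in tumour RNA, so 1 UMI of a member is a large step.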
